A study of Bos taurus with 170 samples.

Results

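The nuclear pore and the receptors that carry cargo through it were followed across Day 2 and Day 3 of bovine embryo development. Members were chosen by gene name and not by a filter on their values, though earlier results of these data were known. They were nucleoporin genes named NUP plus digits, the importin alpha genes (KPNA), KPNB1, the numbered importins (IPO), the transportins (TNPO), the exportins (XPO, leaving out XPO5), the RANBP and RANGAP genes, and RAN, TPR, AAAS and SEH1L. This rule found 45 of the 10772 genes in the table of unique molecular identifier (UMI) counts. All 45 symbols had a RefSeq gene of the same name, and 40 members had a UMI in all 14 embryos.

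Single blastomeres were profiled by SCRB-Seq, which tags every captured mRNA at its end so that each molecule is counted once. The Day2 group was 6 embryos at the 8-cell stage and the Day3 group 8 embryos at the 16-cell stage, all produced in vitro from oocytes of slaughterhouse ovaries, matured and fertilised in culture. Embryos had been picked by the timing of their first cleavages in time-lapse films to favour high developmental potential, so they do not stand for all embryos of a culture. The paper calls the potential of a dissected embryo uncertain. Day3-E1, Day3-E5 and Day3-E6 had the latest first cleavages of all embryos, past the window with the paper's highest blastocyst rate. The zona was removed enzymatically and the blastomeres were pulled apart with a pipette before lysis. UMI of all cells with 2000 or more UMI were added up per embryo, and the embryo was the replicate. The unit of a level is CPM, UMI per 1000000 UMI on genes, values after ± are SDs over the n embryos of a day, and SE stands for the standard error of a log2 fold change. Since each captured molecule gives 1 UMI whatever its length, levels of different genes need no length correction. How completely each gene was captured was not measured, so comparisons between genes are approximate. A change in an embryo's sum can come from fewer cells with the transcript or from less RNA in each cell, and these cannot be told apart in the sum.

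The nuclear pore complex is a ring of nucleoporins set in the nuclear envelope. An outer ring of Y-shaped complexes and an inner ring form its scaffold, nucleoporins with FG repeats fill the central channel, filaments reach into the cytoplasm and a basket reaches into the nucleus. Importin alpha binds the classical nuclear localisation signal of a cargo and importin beta takes the pair through the channel. Other receptors of the importin beta family bind their cargo directly, and the exportins work in the opposite direction. The small GTPase Ran releases import cargo and loads export cargo in the nucleus. In the cleaving embryo these proteins are first supplied by the oocyte, and the embryo's own transcription takes over later.

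Depth and composition differed between the days. The 43 Day 2 cells kept had a median of 76074 UMI and the 118 Day 3 cells 24696, and embryo sums ran from 438899 to 920192 UMI on Day 2 and from 294912 to 600185 on Day 3. Oocyte and early embryo markers (9 of 14 in the table, such as ZP2, GDF9 and DPPA3) summed to 7818 to 9064 CPM on Day 2 and 2379 to 9004 on Day 3, so the labelled cells carried the markers that define them. Cumulus cell markers (11 of 15 in the table) summed to 500 to 621 CPM on Day 2 and 203 to 560 on Day 3, most of it HAS2 and STAR. VIM, DCN and COL6A1 had 0 UMI on Day 2 and 4, 2 and 1 on Day 3. TNFAIP6 had 1 UMI on Day 2 and 35 on Day 3, and 7 of 8 Day 3 embryos were above the Day 2 range. The part of these cells in the results was not tested. Day3-E1 stood apart from the other Day 3 embryos: of all 1703 genes called between the days, 51.7% had their Day3-E1 value inside the Day 2 range. By their cell barcodes, the Day 2 embryos belong to a first set together with Day3-E2 and Day3-E1, and the embryos from Day3-E4 upward to a second. In all, 77 barcodes were used by 2 cells each, and since no Day 2 embryo is in the second set, day and barcode set are mixed. Plate is read here from the p and number that end each cell title, and the paper does not say what this ending stands for. Day and set are mixed in the same way within plate 2 and plate 3, the plates with embryos of both days. Fits within a plate or with plate as a covariate therefore do not separate day from set. The set of Day3-E3 could not be settled. By the paper's collection times, Day3-E1 to Day3-E4 were collected first, Day3-E5 and Day3-E6 later and Day3-E7 and Day3-E8 last. Barcode set and collection time are therefore partly mixed among the Day 3 embryos. No 2 cells kept had identical counts.

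Single genes of the transport machinery differed between the days while their summed level differed by less than the SD of either day. The import receptors TNPO3 and TNPO2, the exportin XPO1, RAN and the nucleoporins of the central channel and the basket (NUP62, NUP58, NUP50) were higher on Day 3. In the outer ring NUP37 and NUP133 were lower, SEH1L was higher and the other 2 tested genes were not called, and in the inner ring NUP35 and NUP188 were lower and the other 3 were not called. Importin alpha was dominated on both days by KPNA7, the form known from oocytes and early embryos, and the share of KPNA2 was smaller on Day 3. The Day 3 embryos below the Day 2 range of the KPNA2 share were those of the second barcode set. Most of them were also collected later than the other Day 3 embryos.

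Of the 45 members, 37 had enough UMI to be tested by edgeR's quasi-likelihood test, and 16 of them (43.2%) passed an adjusted p of 0.05 over all genes. The same test called 32.3% of all 5274 genes. Of the members, 12 (32.4%) were higher on Day 3, against 21.2% of all genes, and 4 (10.81%) were lower, against 11.13%. Another 21 were tested and not called, 2 of which (KPNB1 and RANBP3) had an unadjusted p under 0.05. The median log2 fold change was 0.16 over the tested members and -0.04 over all genes tested. The fit corrects for composition by TMM scaling. Without it the median of all genes moved to -0.27, 10 members were higher and 5 lower (16.82% and 18.34% of all genes), and the split over all genes changed from 1116 higher and 587 lower to 887 and 967. None of the 16 called members changed sign, but 7 uncalled ones did (NUP153, NUP160, NUP205, NUP43, NUP93, TPR and XPO7). Over every alternative run, 13 of the 21 uncalled members changed sign at least once, so no direction is given for those. A member low on Day 2 could be tested only if it was higher on Day 3: IPO7 lay under the filter level of 22.3 CPM in all 6 Day 2 embryos, and 4 tested members did so in at least 1 of them. TNPO3, called higher, was another of these 4. It lay over the level in 4 Day 2 and 8 Day 3 embryos, so its Day 3 level also helped it into the test. Leaving IPO7 aside but keeping TNPO3, 11 of 36 tested members (30.6%) were higher.

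**Figure D1:**
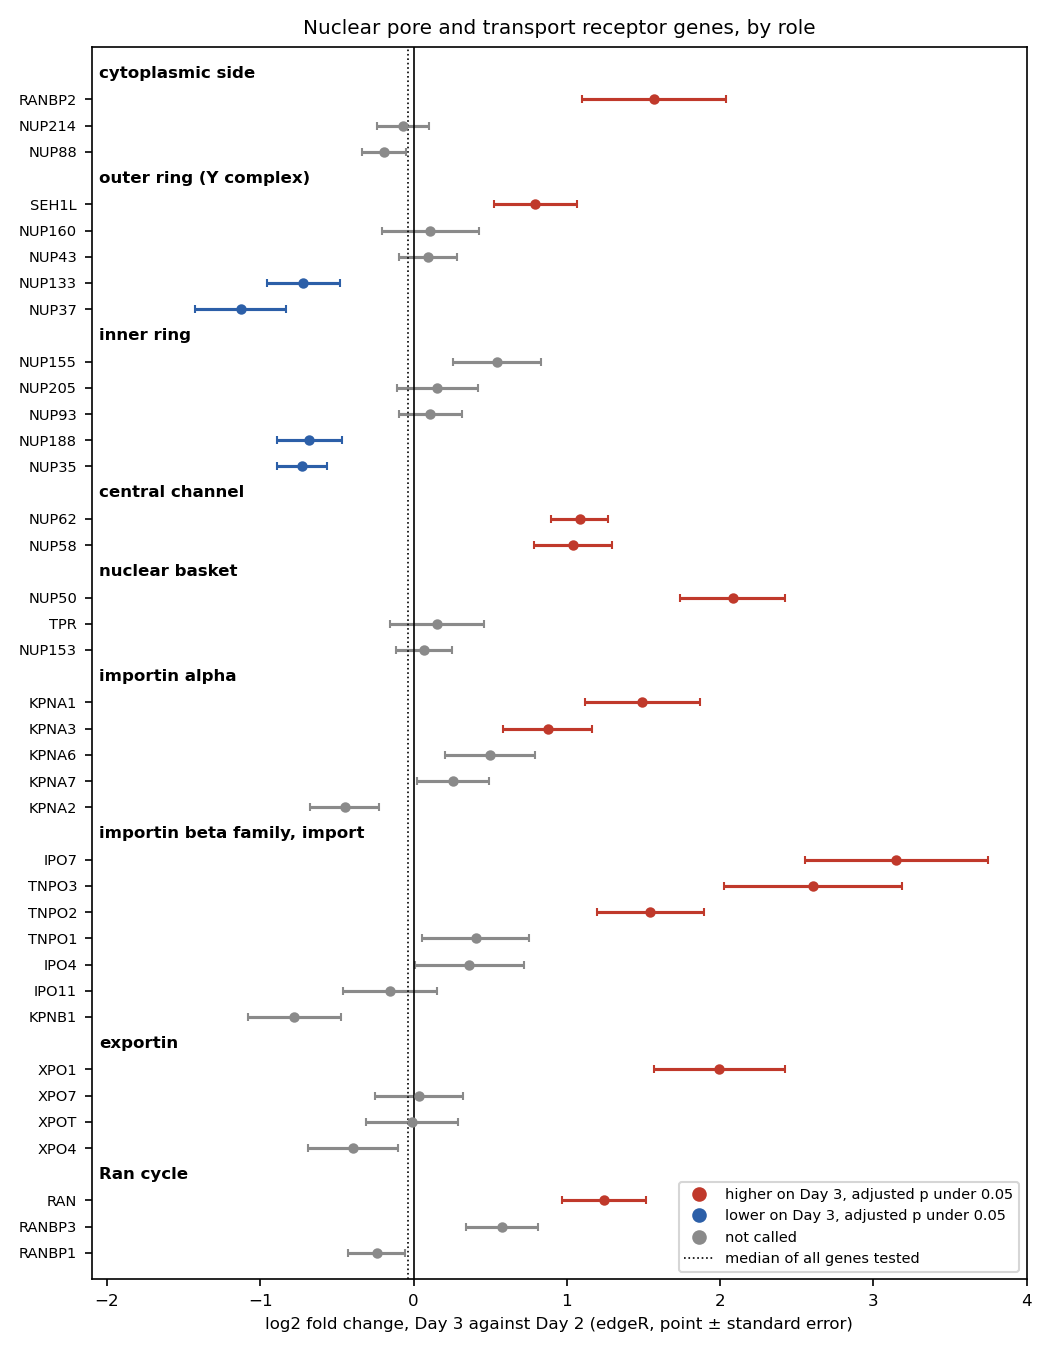
Log2 fold change of Day 3 against Day 2 for the 37 tested members, grouped by role, with standard errors from edgeR (6 Day 2 and 8 Day 3 embryos). Red points are the 12 members called higher, blue points the 4 called lower and grey points the 21 not called, and the dotted line is the median of all genes at -0.04. Both central channel genes lie to the right and the lower calls sit in the outer and inner ring.

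Both measured genes of the central channel rose. NUP62, which with NUP58 forms the FG-repeat complex that lines the channel, had a lowest, median and highest level of 248, 266 and 298 CPM on Day 2 and of 318, 457 and 611 on Day 3. The days did not overlap, with every embryo of Day 3 higher, as for 3.98% of all genes tested. Its log2 fold change was 1.08 (SE 0.18, edgeR adjusted p = 0.000533), and within plate 2 and plate 3 it was 1.22 and 1.28. NUP58 went from 180, 202 and 243 CPM to 198, 365 and 471, with a log2 fold change of 1.04 (SE 0.25, edgeR adjusted p = 0.00579). Day3-E1 and Day3-E5 were the 2 embryos that stayed inside the Day 2 range of NUP58, and its call was lost within plate 3 (0.68, edgeR adjusted p = 0.0652).

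In the inner ring, which joins the scaffold to the membrane, 2 of 5 tested genes fell and 0 rose. The count of rises was also 0 at an unadjusted p under 0.05 in edgeR and by DESeq2's adjusted p. At an unadjusted p under 0.05 DESeq2 gave NUP155 as a rise (log2 fold change 0.57, p = 0.0467, DESeq2 Wald test). Over all genes tested 11.13% fell and 21.2% rose. NUP35, by its mean over embryos the most abundant nucleoporin of the table, ranged from 611 to 834 CPM on Day 2 (median 751) and from 275 to 553 on Day 3 (median 362). Every Day 3 embryo was below every Day 2 embryo, a pattern held by 5.38% of all genes tested. The log2 fold change of NUP35 was -0.73 (SE 0.16, edgeR adjusted p = 0.00348), and within plate 2 it was -1.02 with the call lost (edgeR adjusted p = 0.0818). NUP188, a large scaffold protein, also had its days fully apart, with a lowest, median and highest level of 61.5, 75.7 and 89.7 CPM on Day 2 and of 20.9, 39.2 and 54.3 on Day 3. Its log2 fold change was -0.68 (SE 0.21, edgeR adjusted p = 0.0240). With the plate of each embryo as a covariate the call of NUP188 was lost (edgeR adjusted p = 0.0846), as it was within plate 2 and plate 3 (-0.44 and -0.82). The related scaffold protein NUP205, the linker NUP93 and NUP155 were not called.

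The outer ring was split. NUP37, a small beta-propeller protein of the Y complex, fell most of all members. Its lowest, median and highest levels were 93.4, 98.3 and 157 CPM on Day 2 and 15.34, 45.8 and 86.4 on Day 3. The days did not overlap, and the log2 fold change was -1.13 (SE 0.30, edgeR adjusted p = 0.00901). In cells thinned to 10000 UMI (37 Day 2 and 103 Day 3 cells, leaving out 6 and 15 shallower ones), NUP37 had a UMI in a mean of 66.1% of the cells of a Day 2 embryo and 32.8% of those of a Day 3 embryo, and in 92.8% and 54.1% without thinning. NUP133, at the end of the stem of the Y, ranged from 145 to 268 CPM (median 234) and then from 44.8 to 168 (median 111), a log2 fold change of -0.72 (SE 0.24, edgeR adjusted p = 0.0303). Of the 8 Day 3 embryos, 5 lay below the Day 2 range of NUP133. Leaving out Day2-E4 or Day2-E6 took it over the threshold, to at most an edgeR adjusted p of 0.0577, and within plate 2 and plate 3 (-1.09 and -0.71) it was not called. SEH1L, which is shared by the Y complex and by a regulator of mTORC1, rose in the same ring. It had 235 to 322 CPM on Day 2 (median 276) and 223 to 631 on Day 3 (median 350), a log2 fold change of 0.79 (SE 0.27, edgeR adjusted p = 0.0328). The highest value, 631 CPM, was that of Day3-E8, and the call was lost without TMM scaling, within plate 2 and in 9 of the 14 fits that leave out 1 embryo (any of the 6 Day 2 embryos, or Day3-E4, Day3-E6 or Day3-E8; highest edgeR adjusted p = 0.0827). NUP160 and NUP43 were not called.

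On the nuclear side NUP50 rose and its neighbours were not called. NUP50, a mobile basket protein that helps importin alpha release its cargo, had a lowest, median and highest level of 91.0, 97.5 and 135 CPM on Day 2 and of 133, 348 and 538 on Day 3. Day3-E1 was the one Day 3 embryo inside the Day 2 range, at 133 CPM. The log2 fold change was 2.08 (SE 0.34, edgeR adjusted p = 0.000400), and it was 2.68 within plate 2, 1.58 within plate 3 and 1.63 with only the embryos of the first barcode set. NUP50 was the one member still called in that last fit. In thinned cells, the share with a NUP50 UMI went from 56.4% to 94.2%, and in all cells kept from 90.0% to 98.4%. The neighbours were NUP153 and TPR, the anchor and the coiled-coil strut of the basket.

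On the cytoplasmic side RANBP2, the filament protein that binds Ran and SUMO-modified RANGAP1, rose with a wide spread. Its lowest, median and highest levels were 90.2, 110 and 132 CPM on Day 2 and 83.2, 193 and 559 on Day 3. Day3-E8, Day3-E2 and Day3-E4 had 559, 441 and 335 CPM, while Day3-E5 was below every Day 2 embryo. The log2 fold change of 1.57 (SE 0.47, edgeR adjusted p = 0.0193) was 2.22 within plate 2 but 0.14 within plate 3 (edgeR adjusted p = 0.765). With plate as a covariate it was 1.102 and the call was lost (edgeR adjusted p = 0.155). NUP88, which holds the filaments' base together with NUP214, was among the 5 most abundant members at 528 ± 49.4 CPM (n = 6) on Day 2 and 387 ± 68.4 (n = 8) on Day 3. It was not called (edgeR adjusted p = 0.318), and neither was NUP214.

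Importin alpha levels were carried by 2 genes. KPNA7 had the most UMI of all members and rank 22 among all genes, and KPNA2 rank 165. The lowest, median and highest levels of KPNA7 were 1809, 2117 and 2679 CPM on Day 2 and 716, 2459 and 3482 on Day 3. The Day 3 embryos spread to both sides of the Day 2 range, with Day3-E7 and Day3-E5 above it and Day3-E8, Day3-E2 and Day3-E4 below. The log2 fold change was 0.26 (SE 0.23, edgeR adjusted p = 0.407), although within plate 3 it was 0.56 and passed (edgeR adjusted p = 0.0206). KPNA2, the other abundant isoform, had 795, 916 and 1081 CPM on Day 2 and 203, 574 and 981 on Day 3. It lay below the Day 2 range in 6 of 8 Day 3 embryos, and was not called (log2 fold change -0.45, SE 0.23, edgeR adjusted p = 0.132). The 3 Day 3 embryos lowest in KPNA7 (Day3-E8, Day3-E2 and Day3-E4) were also those with the lowest sums of oocyte and early embryo markers, at 2379, 4957 and 4734 CPM. The part of this in the KPNA7 level was not tested.

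Among the scarcer isoforms, KPNA1 and KPNA3 rose. KPNA1 went from 23.9, 45.4 and 54.1 CPM (lowest, median and highest) on Day 2 to 35.0, 105 and 149 on Day 3, with a log2 fold change of 1.49 (SE 0.38, edgeR adjusted p = 0.00687). Day3-E1 and Day3-E6 stayed inside the Day 2 range. Within plate 3 the value was 0.59 and the call was lost (edgeR adjusted p = 0.265), as it was with plate as a covariate (1.25, edgeR adjusted p = 0.0532). KPNA3 had 61.9, 85.8 and 101 CPM on Day 2 and 67.9, 134 and 172 on Day 3, and Day3-E1, Day3-E5 and Day3-E7 were inside the Day 2 range. Its log2 fold change was 0.88 (SE 0.29, edgeR adjusted p = 0.0290). This call was lost without TMM scaling, within either plate and in 8 of the 14 fits that leave out 1 embryo (Day2-E1 to Day2-E4, Day2-E6, Day3-E4, Day3-E6 or Day3-E8; highest edgeR adjusted p = 0.0713). KPNA6 was not called (log2 fold change 0.50, and -0.10 within plate 3). KPNA4 had too few UMI to be tested in the main fit, 25 on Day 2 and 92 on Day 3. Its level was 6.04 ± 2.84 CPM (n = 6) against 32.1 ± 23.4 (n = 8). It was tested and called higher without the filter on low counts (log2 fold change 2.54, edgeR adjusted p = 0.00943) and within plate 2 (3.61, edgeR adjusted p = 0.0123). With so few UMI on Day 2, these calls are no support for a rise of the isoforms.

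Isoform use was measured as the share of each gene in all importin alpha UMI of an embryo, which does not depend on library scaling. KPNA7 made up 62.4% to 73.04% of the UMI in Day 2 embryos (median 64.7%) and 52.4% to 81.8% in Day 3 embryos (median 70.2%). The mean difference was 3.03 percentage points, within the spread of the embryos (p = 0.470, two-sided exact permutation test over 3003 splits). It was -1.78 points within plate 2 and 10.03 within plate 3. KPNA2 had a share of 21.7% to 33.0% on Day 2 (median 29.2%) and of 11.69% to 26.9% on Day 3 (median 18.4%). Its mean share was lower by 9.82 percentage points on Day 3 (difference -9.82, p = 0.00566, exact permutation test), and 5 of 8 Day 3 embryos lay below the Day 2 range. These 5 were Day3-E4 to Day3-E8, all of the second barcode set, at 11.69% to 19.1%. Day3-E1, Day3-E2 and Day3-E3 were inside the Day 2 range at 26.9%, 22.4% and 22.9%. All of these 5 but Day3-E4 were also collected later than Day3-E1, Day3-E2 and Day3-E3. The parts of the barcode set and of collection time in this difference were not tested. Within plate 2 the difference was -12.2 points and within plate 3 -11.2 points, but all Day 3 embryos of these plates were of the second set. Without Day3-E1 the difference was -11.0. With the embryos of the first barcode set alone, 2 on Day 3, it was -3.58 (p = 0.321, exact permutation test). KPNA7 outnumbered KPNA2 by 2.399 ± 0.545 UMI to 1 (n = 6) on Day 2 and by 4.11 ± 1.605 (n = 8) on Day 3. The order was the same in nearly every blastomere: with at least 10 importin alpha UMI, KPNA7 exceeded KPNA2 in all 41 Day 2 cells and in 114 of the 115 Day 3 cells.

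The other 4 isoforms together summed to 147 to 231 CPM on Day 2 and 182 to 448 on Day 3. KPNA1 took 1.29% ± 0.431 of importin alpha UMI on Day 2 (n = 6) and 3.66% ± 2.68 on Day 3 (n = 8), a difference of 2.37 percentage points (p = 0.0433, exact permutation test). This difference was 4.72 points within plate 2 and 0.211 within plate 3. It lost the threshold when any 1 of the 6 Day 2 embryos, Day3-E2 or Day3-E7 was left out (p = 0.0542 to 0.0870, exact permutation tests) and in the first barcode set (p = 0.214, exact permutation test). KPNA4 went from 0.186% ± 0.0915 (n = 6) to 1.41% ± 1.52 (n = 8), with p = 0.0506 by the exact permutation test. The shares of KPNA3 (2.504% and 4.81%, p = 0.139) and KPNA6 (1.76% and 2.65%, p = 0.413, both by the exact permutation test) did not pass the threshold. These p-values are unadjusted and 6 isoforms were tested, whose shares add up to 100% and are not independent. The Day 3 embryos varied: the 4 scarcer isoforms took 32.8% of importin alpha UMI in Day3-E8 and 4.98% in Day3-E1.

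**Figure D2:**
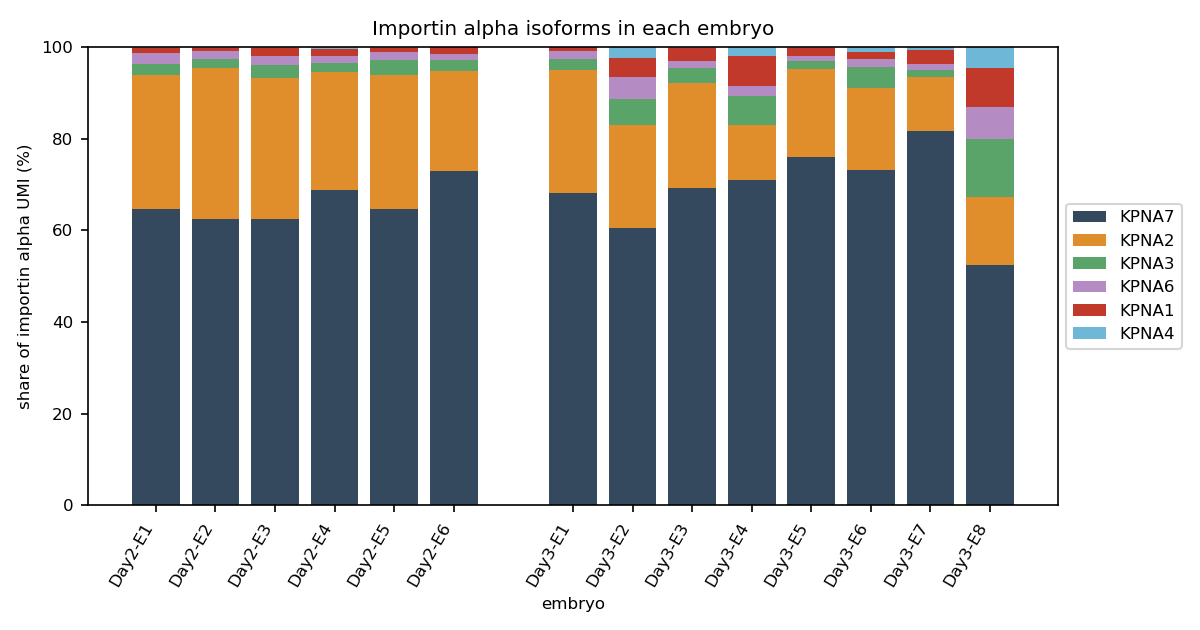
Share of each importin alpha gene in all importin alpha UMI, as 1 stacked bar per embryo (6 Day 2 embryos left, 8 Day 3 embryos right, vertical axis from 0 to 100%). KPNA7 is the largest part of every bar, KPNA2 takes 21.7% to 33.0% on Day 2 and 11.69% to 26.9% on Day 3, and the scarcer isoforms are widest in Day3-E8.

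Of the 7 tested import receptors of the importin beta family, 3 rose and 0 fell by edgeR's adjusted p (1, KPNB1, at an unadjusted p under 0.05 and by DESeq2), against 21.2% and 11.13% of all genes. IPO7, which imports ribosomal proteins and linker histones, is 1 of the 3 and lay over the filter level in no Day 2 embryo, so it entered the test only through its Day 3 level and its call is no support for a rise of the group. Its lowest, median and highest levels were 3.04, 8.75 and 11.39 CPM on Day 2 (30 UMI in all) and 15.0, 41.0 and 113 on Day 3 (158 UMI). The days did not overlap for IPO7 with Day3-E1 and Day3-E5 nearest to Day 2. In log2 terms the change was 3.1496 (SE 0.60, edgeR adjusted p = 0.00117). TNPO3, the receptor of SR splicing factors, had 14.13, 28.6 and 47.8 CPM on Day 2 and 29.99, 109 and 340 on Day 3, a log2 fold change of 2.604 (SE 0.58, edgeR adjusted p = 0.00347). Day3-E8 was the highest embryo and Day3-E1 and Day3-E5 were inside the Day 2 range. TNPO3 lay over the filter level in 4 Day 2 and 8 Day 3 embryos. It entered the test partly through its Day 3 level, and its call is likewise no support for a rise of the group. TNPO2, a transportin for RNA-binding proteins, had 33.5, 59.2 and 83.1 CPM on Day 2 and 70.2, 124 and 212 on Day 3. Its log2 fold change was 1.55 (SE 0.35, edgeR adjusted p = 0.00365), with values of 2.119 within plate 2 and 0.80 within plate 3, where the call was lost (edgeR adjusted p = 0.102). The paralog TNPO1 was not called (log2 fold change 0.41, SE 0.35, and -0.36 within plate 3). IPO4 and IPO11 were not called either.

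KPNB1, the importin beta that works with importin alpha, was the member nearest to the threshold. Its lowest, median and highest levels were 61.5, 73.5 and 92.3 CPM on Day 2 and 16.16, 25.3 and 67.8 on Day 3. The Day 3 embryos fell into 2 groups. Day3-E1 and Day3-E2 of the first barcode set and Day3-E3, whose set is not settled, had 61.6 to 67.8 CPM, inside the Day 2 range. Day3-E4 to Day3-E8 of the second set had 16.16 to 29.9. Between the days the log2 change was -0.78 (SE 0.30, edgeR adjusted p = 0.0590). It passed the threshold with plate as a covariate (-1.65, edgeR adjusted p = 0.00142), within plate 3 (-1.80, edgeR adjusted p = 0.00201), without TMM scaling (-1.01, edgeR adjusted p = 0.0228) and by DESeq2 (-0.76, adjusted p = 0.0181). Among embryos of the first set it was -0.08 (edgeR adjusted p = 0.919). For 5 members (KPNB1, NUP153, NUP35, NUP37 and NUP88) the 5 embryos of the second set all lay below the other Day 3 embryos, as for 8.72% of all genes tested, and for 0 members they all lay above (87 of 5274 genes). The parts of the barcode set and of collection time in these levels were not tested.

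As shares of all import receptor UMI, the means of KPNB1, TNPO1 and IPO11 were smaller on Day 3 and those of the transportins TNPO2 and TNPO3 and of IPO7 larger. On Day 2 KPNB1 took 19.7%, TNPO1 27.0%, IPO11 17.2%, TNPO2 14.52%, TNPO3 7.22% and IPO7 1.96% (means of 6 embryos). On Day 3 the means of 8 embryos were 7.92%, 19.2%, 8.999%, 23.9%, 20.3% and 8.52% in the same order. KPNB1 ranged from 14.52% to 25.7% on Day 2 and from 2.07% to 20.3% on Day 3, so its days overlapped, while those of IPO7 (0.855% to 2.69% and 4.95% to 11.47%) did not. No test was run on these shares.

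Among the 4 exportins, XPO1 rose, while XPO4 (an exportin of translation factors), XPOT (the exportin of tRNA) and XPO7 were not called. XPO1, the receptor of leucine-rich export signals, had 77.5, 109 and 162 CPM on Day 2 and 88.3, 356 and 613 on Day 3. Day3-E1 and Day3-E5 stayed inside the Day 2 range at 88.3 and 140 CPM, and the other 6 Day 3 embryos were above it. The fitted log2 fold change was 2.00 (SE 0.43, edgeR adjusted p = 0.00267), with 3.02 within plate 2 and 1.07 within plate 3. XPO1 made up 47.3% ± 9.43 of exportin UMI on Day 2 (n = 6) and 73.9% ± 15.33 on Day 3 (n = 8).

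In the Ran cycle RAN itself rose, and its regulators were not called or were too scarce to test. RAN had 64.0, 74.8 and 100 CPM (lowest, median and highest) on Day 2 and 78.3, 152 and 215 on Day 3. Day3-E1 was the one Day 3 embryo inside the Day 2 range. On the log2 scale the change was 1.25 (SE 0.27, edgeR adjusted p = 0.00294), with 1.37 within plate 2 and 1.06 within plate 3. RANBP1, which helps RANGAP1 to trigger GTP hydrolysis by Ran, was more abundant than RAN on both days, at 542 ± 77.5 CPM (n = 6) and 394 ± 141 (n = 8), and was not called (log2 fold change -0.24, edgeR adjusted p = 0.333). RANBP3, a cofactor of XPO1, had a log2 fold change of 0.58 (edgeR adjusted p = 0.0658). RANGAP1 had 13.71 ± 1.79 CPM (n = 6) and 14.78 ± 10.99 (n = 8), with 55 and 46 UMI in all.

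**Figure D3:**
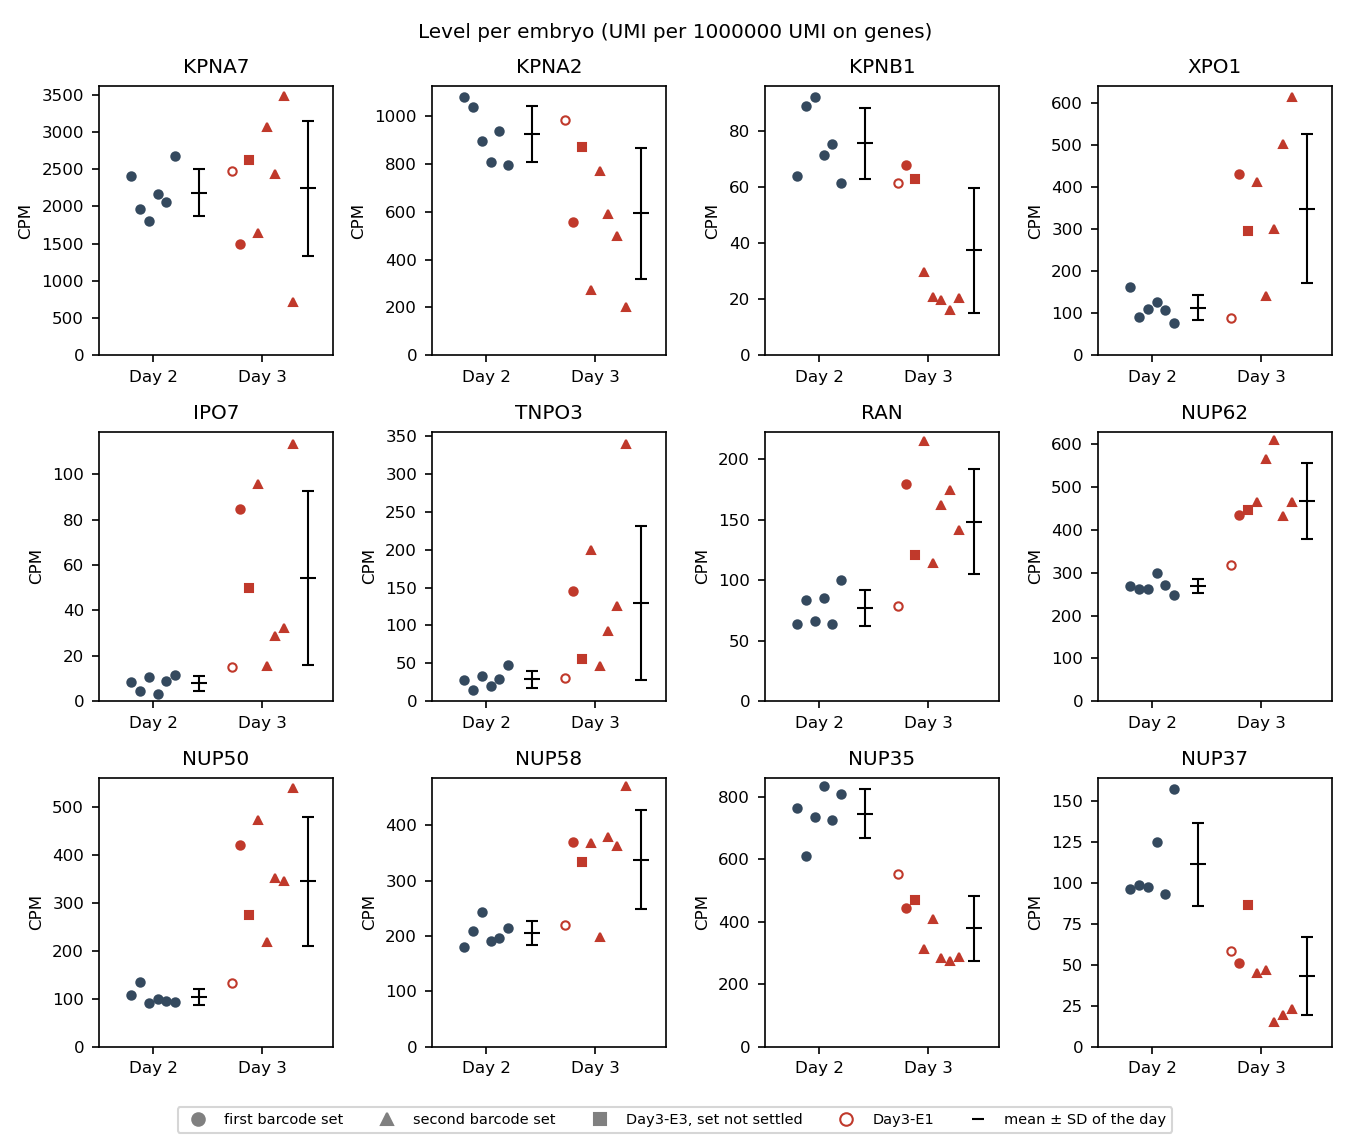
Level in CPM of 12 members in each embryo, in order of embryo number, with the mean and SD of each day as a dash and bar (6 Day 2 embryos in dark blue, 8 Day 3 embryos in red). Circles are the first barcode set, triangles the second and the square Day3-E3, and the open circle is Day3-E1, which lies at 133 CPM for NUP50 and 88.3 for XPO1. KPNB1 splits on Day 3 between 61.6 to 67.8 and 16.16 to 29.9 CPM.

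The remaining members had few UMI. AAAS, IPO5, IPO8, IPO13, NUP210 and RANBP10 were not tested in the main fit, nor were KPNA4 and RANGAP1. NUP210, a membrane nucleoporin, had 0 UMI on Day 2 and 1 on Day 3, and IPO8 had 1 on each day, so no difference was detectable at this depth. IPO13, a receptor that works in both directions, had a mean of 12.4 CPM on Day 2 and 22.2 on Day 3.

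Summed over all 45 members, the level was 8832 ± 398 CPM (n = 6) on Day 2 and 8970 ± 559 (n = 8) on Day 3, or 0.883% and 0.897% of all gene UMI. KPNA7 and KPNA2 together made up 35.2% ± 2.52 of member UMI on Day 2 (n = 6) and 31.3% ± 11.46 on Day 3 (n = 8). The summed level of the inner ring was 1027 to 1329 CPM on Day 2 and 631 to 978 on Day 3, and that of the central channel 449 to 505 and 538 to 991, so that neither sum overlapped between the days. The exportins summed to 216 to 261 CPM and then 198 to 695, and the import receptors to 347 to 427 and then 291 to 996. In both sums Day3-E1 was below every Day 2 embryo and Day3-E8 was highest. Importin alpha summed to 2898 to 3723 CPM on Day 2 and 1367 to 4258 on Day 3. The sums are weighted by the most abundant genes, and no test was run on them.

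**Figure D4:**
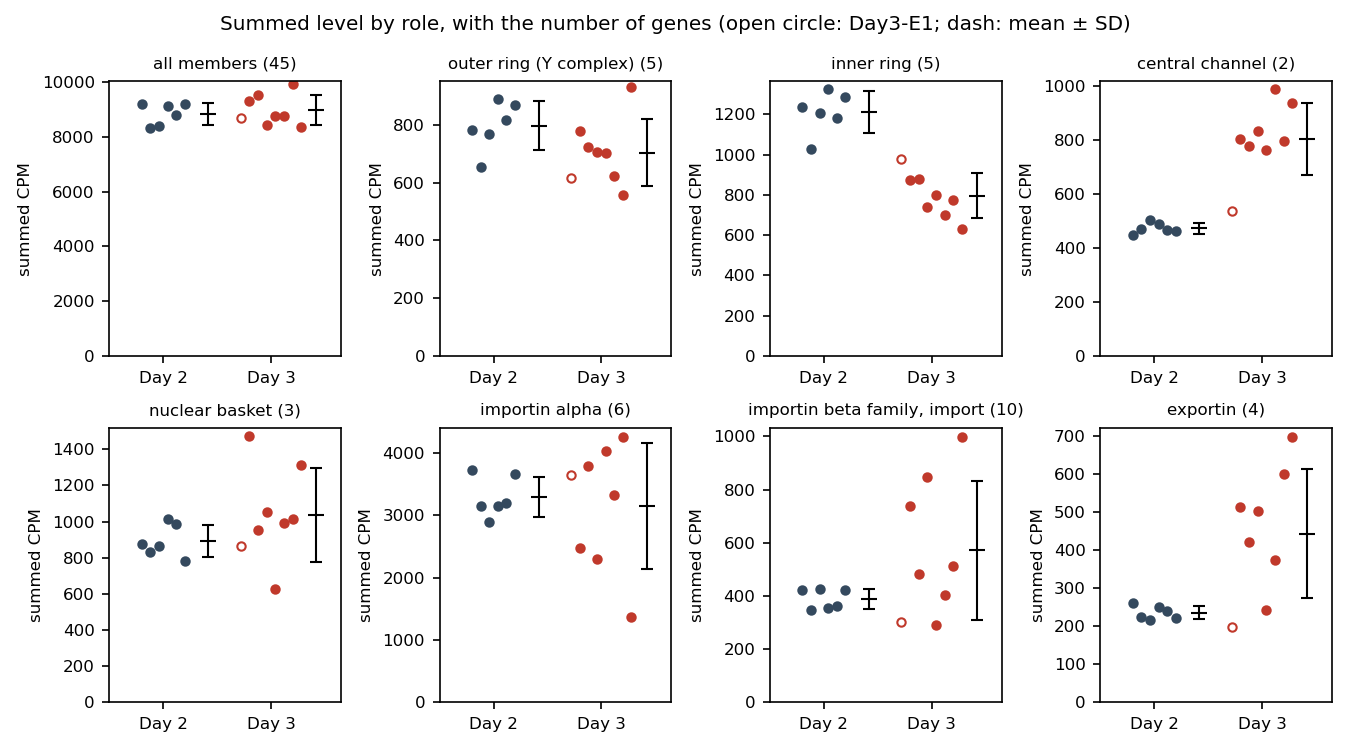
Summed CPM of all members and of 7 roles in each embryo, with the number of genes in brackets, axes from 0, and the mean and SD of each day as a dash and bar (6 Day 2 and 8 Day 3 embryos, open circle Day3-E1). The inner ring (1027 to 1329 against 631 to 978 CPM) and the central channel (449 to 505 against 538 to 991 CPM) separate the days, while the sum of all members does not.

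The Day 3 embryos did not move together. Day3-E2, Day3-E4 and Day3-E8 lay beyond the Day 2 range for all 16 called members, and Day3-E3 for 15. Day3-E6 and Day3-E7 did so for 14, Day3-E5 for 9 and Day3-E1 for 5. Over all called genes the shares beyond the Day 2 range were 40.8% in Day3-E1, 71.5% in Day3-E5 and 76.3% to 96.6% in the others. For 9 of the 12 higher members Day3-E1 was inside the Day 2 range, against 57.7% of all genes called higher, and for 1 of the 4 lower members, against 40.4% of all genes called lower. Without Day3-E1, 13 members were called higher and 5 lower, against 23.9% and 17.66% of all genes. The coefficient of variation between embryos was larger on Day 3 for 35 of 37 tested members and for 95.3% of all genes tested, with a median over members of 18.9% on Day 2 and 38.5% on Day 3.

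Plates held embryos of both days in 2 cases. In both, the Day 2 embryos were of the first barcode set and the Day 3 embryos of the second. Fits within a plate therefore cannot tell day from set. Plate 1 held no Day 2 embryo, so the fit with plate as a covariate cannot either. Within plate 2 (2 Day 2 and 2 Day 3 embryos) 11 of 39 tested members were called higher and 1 lower, against 19.0% and 8.9% of all genes. Within plate 3 (4 Day 2 and 2 Day 3 embryos) 7 of 38 were called higher and 3 lower, against 15.17% and 9.34%. With plate as a covariate 9 were higher and 4 lower, against 16.74% and 13.71%. Among the embryos of the first barcode set 1 of 40 (NUP50) was called higher and 0 lower, against 2.55% and 0.275% of all genes. Only 2 Day 3 embryos remained in that fit, 1 of them Day3-E1. An unadjusted p under 0.05 was reached there by 8 of the 12 higher members (IPO7 was not tested there) and 2 of the 4 lower ones. The share of all genes at that unadjusted level was not computed. The 16 members called over all embryos kept their direction in each of these fits, apart from IPO7, which had too few UMI to be tested within plate 3 and in the first set. Each fit reused embryos of the fit that picked these members. Neither the kept direction nor the unadjusted p-values are therefore separate support.

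Other genes of the transport pathway, listed by role, are given beside the shares over all genes of 21.2% higher and 11.13% lower. The lists were drawn up with earlier results of these data known. Of 19 tested partners of the pore and its receptors, 4 rose and 1 fell, a share of rises near that of all genes. NUPL2, a nucleoporin of the cytoplasmic face, went from 27.5 ± 8.77 CPM (n = 6) to 217 ± 116 (n = 8), and the days did not overlap (log2 fold change 3.35, SE 0.45, edgeR adjusted p = 0.000124). AHCTF1, which seats new pores on chromatin after mitosis, went from 109 ± 24.3 CPM (n = 6) to 413 ± 194 (n = 8), a log2 fold change of 2.27 (SE 0.39, edgeR adjusted p = 0.000594). The mRNA exporter NXF1 and NXT2, a paralog of its partner, rose by 1.06 and 1.22 on the log2 scale. SEC13, shared by the Y complex and the COPII coat and named here because it was the one fall, had a log2 fold change of -0.57 (edgeR adjusted p = 0.0328). CSE1L, which returns importin alpha to the cytoplasm, and NUTF2, which returns Ran to the nucleus, were not called (-0.20 and 0.17). RCC1, the exchange factor of Ran, was too scarce to test, at 18.2 ± 5.24 CPM (n = 6) and 11.795 ± 8.75 (n = 8).

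Genes of mRNA export rose in 7 of 13 tested cases, against 21.2% of all genes, and fell in 1 (THOC3, named here as the one fall). The largest rises were those of the helicase DDX39A (42.6 to 62.7 CPM on Day 2 and 55.0 to 1086 on Day 3) and the adaptor ALYREF (34.2 to 63.9 CPM on Day 2 and 119 to 502 on Day 3). Their log2 fold changes were 3.69 and 2.93 (edgeR adjusted p = 0.000307 and 3.17e-05), and for ALYREF the days did not overlap. CHTOP, which acts with ALYREF, and the cap-binding subunit NCBP2 followed with 2.68 and 2.59. Of 12 tested genes of the nuclear lamina and envelope, 1 rose and 2 fell, against 21.2% and 11.13% of all genes. LBR, the lamin B receptor, had a log2 fold change of 2.09 (edgeR adjusted p = 0.00408). SUN2 and SYNE2, which link the nucleus to the cytoskeleton, had log2 fold changes of -0.90 and -0.89 (edgeR adjusted p = 0.0133 and 0.00809), and for both every Day 3 embryo was under the lowest Day 2 value.

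Of 9 tested oocyte and early embryo markers, 4 fell (ZAR1, GDF9, OOEP and ZP2, with log2 fold changes from -1.49 to -0.53) and 0 rose by edgeR's adjusted p, against 11.13% and 21.2% of all genes. At an unadjusted p under 0.05, and by DESeq2, 1 rose (DPPA3, named because it was the one). Of the 3 tested cumulus cell markers 0 were called by edgeR's adjusted p, and 1 (STAR, likewise) at an unadjusted p under 0.05 and by DESeq2.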

How the data were processed

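Blastomeres of 6 Day 2 and 8 Day 3 embryos were measured (170 cells, 161 of them with 2000 or more UMI). The authors mapped the reads to the Bos tau7 genome and the ERCC spike-ins with STAR 2.5.2b (version from the submitters' processing notes) and counted the UMI of each gene by the tools of the Drop-seq pipeline. The deposited raw UMI counts were used here, and the authors' normalised table was not. How reads matching several genes were assigned is not given in the sources used here, so levels of close copies (TNPO1 and TNPO2, DDX39A and DDX39B) are uncertain. No sequences or coordinates were used.

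The 92 spike-ins were left out and UMI were summed per embryo. Day 3 was compared with Day 2 by edgeR 4.0.16 in R 4.3.3 (quasi-likelihood test, robust, TMM, filterByExpr by day, no replicate block) over 5274 genes, with Benjamini-Hochberg adjustment over all of them at 0.05. The SE is the size of the log2 fold change divided by the square root of F. Shares of importin alpha UMI were compared by two-sided exact permutation tests over embryos. Steps were tested on simulated data. Nothing in the labels says that embryos of a day came from separate cultures or oocyte donors, so p-values measure the spread between these embryos. Depth is the sum of UMI per embryo given in the report, and members with few UMI were not tested.

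Members and gene lists were chosen with earlier results of these data known. Named by rule were members past the threshold (up to 30), KPNA1 to KPNA7, KPNB1, XPO1, RAN, RANGAP1, RANBP1, RANBP2, the 5 most abundant members, CSE1L, RCC1, NUTF2, AHCTF1, NXF1 and up to 4 called genes of each other list. Remaining members are named so that each is accounted for. Alternatives were no TMM, DESeq2 size factors, DESeq2 1.42.0, no filter, cells with 10000 or more UMI, plate as covariate, single plates, the first barcode set, a replicate block, the mean of cell shares, and leaving out each embryo.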

Additional observations from a re-analysis of the deposited data

Results flagged for a closer look

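In 3 of 60 groups of embryos tested, 1 embryo lay apart from the rest of its day by Dixon's 95% limit, and chance alone gives about 5% of groups. KPNA6 was at 94.0 CPM in Day2-E1, with the next Day 2 embryo at 55.4. NUP50 was at 134.8 CPM in Day2-E2, with the next at 106.9, and every Day 3 embryo except Day3-E1 was above that value. KPNA3 made up 12.6% of importin alpha UMI in Day3-E8, with the next Day 3 embryo at 6.36%.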

How the results depend on the processing

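The count of higher members was 9 to 13 and that of lower members 3 to 5 when 1 embryo was left out, with 17.34% to 23.9% of all genes higher and 7.87% to 17.66% lower in those fits. A count changed by over 1.5 times within plate 3 (7 higher), within plate 2 (1 lower), with a replicate block (1 lower) and in the first barcode set. In the first set edgeR called 1 higher and 0 lower. There 2 of the 4 lower members reached an unadjusted p under 0.05, a level for which no share of all genes was computed. No called member reversed under any alternative, and DESeq2 called all 16, but the alternatives reused the embryos by which these members were picked. Among the 21 members not called, 13 changed sign in at least 1 alternative and 8 in none. They include KPNA6 (-0.10), TNPO1 (-0.36) and IPO4 within plate 3, and NUP88 (0.015) and IPO11 in the first set. Of the importin alpha shares, that of KPNA7 differed by -1.72 points in the first set, -1.78 within plate 2, 10.03 within plate 3, 0.220 as a mean of cell shares and 1.21 (without Day3-E7) to 5.41 (without Day3-E8) with 1 embryo left out, and that of KPNA2 by -3.58 in the first set. KPNA1 differed by 4.72 points within plate 2, 0.211 within plate 3, 1.24 in the first set and 1.66 (without Day3-E8) to 2.76 (without Day3-E1) with 1 embryo left out, and its p rose over 0.05 without any Day 2 embryo, Day3-E2 or Day3-E7. KPNA4 differed by 2.43 points within plate 2, 0.540 within plate 3, 1.23 as a mean of cell shares (p = 0.0480, exact permutation test) and 0.785 (without Day3-E8) to 1.43 with 1 embryo left out. KPNA3 differed by 4.28 points within plate 2, 0.930 within plate 3, 1.51 in the first set and 1.19 without Day3-E8. KPNA6 differed by 2.57 points within plate 2, -0.509 within plate 3, 1.502 in the first set, 0.578 without Day3-E2 and 0.267 without Day3-E8. The cause of these shifts was not tested. Embryo numbers of the days name different embryos: deviations of same-numbered embryos correlated at -0.132 to 0.0229, with 0 of 6 pairs over 0.1. With the number as a replicate block, 9 members were higher and 1 lower, against 11.26% and 3.92% of all genes, and the call of RANBP2 was lost (0.79, edgeR adjusted p = 0.173). Precision was limited by UMI depth for IPO7, KPNA4, RANGAP1 and other members under the filter level, and by 2 Day 3 embryos in the first set.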
